A study of Mus musculus with 12 samples.

Results

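Proliferating macrophages are macrophages that carry the RNA of cell division, here 2588 cells from the stromal vascular fraction (SVF) of mouse white adipose tissue. A cell entered this population if its barcode held 700 to 22000 unique molecular identifiers (UMIs, each counting 1 RNA molecule), 200 to 6000 genes and under 25% mitochondrial UMIs, at least 1 UMI of the macrophage receptors Adgre1 or Csf1r, no UMI of Cd3d, Cd3e, Cd3g, Cd79a, Pdgfra or Cdh5, and at least 2 UMIs of Mki67 and Top2a together. The same limits without Mki67 and Top2a gave 45992 macrophages, of which the proliferating cells were 5.63%, and they were 2.05% of all cells kept. The members were chosen by these measured UMIs, so the high Mki67 and Top2a of the population is no result.

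The cells came from 12 libraries, labelled as biological replicates, 6 of epididymal (eWAT) and 6 of inguinal (iWAT) white adipose tissue, all from male mice 12 weeks old. In each depot 2 libraries were labelled WT-Veh (C57BL/6J mice gavaged with vehicle), 2 ob/ob-Veh (Lep ob/ob mice, which lack leptin and are obese, gavaged with vehicle) and 2 ob/ob-Rosi (Lep ob/ob mice given rosiglitazone, an agonist of the nuclear receptor PPARγ, at 30 mg/kg morning and evening), and the gavage lasted 3 days in every group. Small pieces of each depot were digested with collagenase II, floating adipocytes were removed and red cells were lysed, so that cells which float or break are under-represented. No lean mice were given Rosi, and the ob/ob mice lack leptin from birth in every cell.

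Macrophages of adipose tissue arise both from blood monocytes and from division of resident cells. Mki67 encodes the Ki-67 protein that coats mitotic chromosomes, Top2a the topoisomerase that untangles replicated DNA, Birc5 (survivin) a subunit of the chromosomal passenger complex, and Kif11 the kinesin that separates the spindle poles. In obese fat, lipid-associated macrophages (LAMs, marked by Trem2 and Gpnmb) surround dying adipocytes and take up their lipid, perivascular macrophages (PVMs, marked by Lyve1 and Cd163) lie along vessels, and non-perivascular macrophages (NPVMs) carry Ccr2 and other genes of recent monocyte descent. Division within the LAM state is known as the proliferating-LAM (PLAM) population.

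Genes of late cell division are bound through CCAAT boxes (by NF-Y) and through cell cycle homology regions, whose core reads TTTGAA or TTTAAA, so the promoters of the 4 cell cycle markers are shown here. Each is the RefSeq window of GRCm38.p6 with the 250 bases before the start site, read 5′ to 3′ along the gene, and capitals mark the 3 motifs on either strand. The windows are chr7:135716380-135716629 (minus strand) for Mki67, chr11:99024190-99024439 (minus) for Top2a, chr11:117848987-117849236 (plus) for Birc5 and chr19:37376132-37376381 (plus) for Kif11.
Mki67: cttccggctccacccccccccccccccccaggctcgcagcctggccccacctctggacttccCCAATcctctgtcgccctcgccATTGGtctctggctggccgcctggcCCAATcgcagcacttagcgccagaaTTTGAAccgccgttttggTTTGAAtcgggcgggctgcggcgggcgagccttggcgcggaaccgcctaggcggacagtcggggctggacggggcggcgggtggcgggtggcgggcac
Top2a: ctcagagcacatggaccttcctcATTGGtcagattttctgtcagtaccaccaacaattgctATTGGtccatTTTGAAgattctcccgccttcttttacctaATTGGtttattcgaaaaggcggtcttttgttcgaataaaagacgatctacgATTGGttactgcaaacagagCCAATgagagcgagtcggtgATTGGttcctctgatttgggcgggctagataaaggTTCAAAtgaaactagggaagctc
Birc5: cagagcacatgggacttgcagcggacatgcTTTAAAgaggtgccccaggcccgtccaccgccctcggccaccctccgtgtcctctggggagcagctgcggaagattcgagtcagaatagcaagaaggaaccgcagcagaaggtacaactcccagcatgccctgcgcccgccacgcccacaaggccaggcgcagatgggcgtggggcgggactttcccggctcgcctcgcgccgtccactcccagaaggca
Kif11: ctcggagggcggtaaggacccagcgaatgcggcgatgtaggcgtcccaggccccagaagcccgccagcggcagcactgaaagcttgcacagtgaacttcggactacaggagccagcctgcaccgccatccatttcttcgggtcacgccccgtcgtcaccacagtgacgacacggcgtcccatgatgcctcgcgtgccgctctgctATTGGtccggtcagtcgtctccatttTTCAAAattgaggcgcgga
CCAAT stood 3 times before Mki67, 6 times before Top2a, once before Kif11 and not in the Birc5 window. TTTGAA stood 2 times before both Mki67 and Top2a and once before Kif11, and the Birc5 window held TTTAAA. Over the 32851 mouse promoters of the same length, 33.8% held CCAAT and 25.2% held TTTGAA or TTTAAA, and 8.78% held CCAAT beside one of the other motifs. Of 48 mitosis genes with a promoter in the table, 72.9% held CCAAT and 39.6% held both kinds, and of 18 LAM genes 44.4% held CCAAT and 11.1% both. A match is a run of letters and not a bound site.

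Marker genes were set against the name at raw and at equal depth. Birc5, which the rule did not use, was found in 63.7% of the proliferating cells and in 3.58% of the other macrophages, and Kif11 in 35.7% and 0.809%. Adgre1 and Csf1r were used by the rule and so are no check of it. Of the macrophage genes it did not use, Lyz2 was found in 99.1% and 96.8%, Cd68 in 89.8% and 68.4%, and C1qa in 89.6% and 89%. T cells, taken over all libraries as kept cells with Cd3 UMIs but none of Adgre1 or Csf1r, should lack these genes. They held Lyz2 in 69.8% and C1qa in 36.8% of cells at a median of 1722 UMIs, and shares near these levels are read as background. This background can be too low, because T cells with an Adgre1 or Csf1r UMI were left out. The median was 7967 UMIs in proliferating cells and 3155 in the other macrophages, and the rule counts raw UMIs, so shares of cells in the proliferating class move with depth. Cells were also thinned to 2000 UMIs, with shallower cells left out, which kept 2439 proliferating cells, 30493 other macrophages and 1414 T cells. Birc5 was then in 37.7% of proliferating cells, 1.68% of other macrophages and 5.37% of T cells, Kif11 in 13.9%, 0.357% and 2.4%, Cd68 in 76%, 64.5% and 8.42%, and C1qa in 78.4%, 87.4% and 25.7%. These shares varied between libraries. Cd68 was in 26.5% and 35.7% of proliferating cells under iWAT ob/ob-Veh (thinned 15.4% and 36.4%), in 61.1% and 81.1% under eWAT ob/ob-Veh (34.7% and 49%) and in 77.4% to 96.4% elsewhere. C1qa was in 56.5% under eWAT ob/ob-Veh 1 (thinned 35.7%), nearest to the level in T cells, and in 64.3% to 96.6% elsewhere, and Lyz2 in 85.7% to 100%. Of genes of other cell types, Trac was in 0.696% of proliferating cells, Pecam1 in 3.63%, Msln in 0.425% and S100a8 in 3.59%, while the stromal collagen gene Col1a1 was in 26.6% of them, in 25% of other macrophages and in 17.6% of T cells. Under iWAT ob/ob-Veh Col1a1 was in 85.3% and 78.6% of proliferating cells (thinned 65.4% and 54.5%), against 13.1% to 34.1% in the other 10 libraries. The B cell gene Cd79b was in 8.5% of proliferating cells (0% to 17.8% by library), 4.48% of other macrophages and 4.07% of T cells, and thinned in 2.3%, 2.26% and 1.63%. The rule removed cells with a UMI of Cd3d, Cd3e, Cd3g, Cd79a, Pdgfra or Cdh5. The shares of Trac, Cd79b, Pecam1 and Col1a1 are thus set in part by the rule and are no check of it.

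The limit of 2 UMIs fell within a continuous range. Macrophages with 1 UMI of Mki67 and Top2a numbered 3061 and held 1.08 UMIs of 7 other cell cycle genes per 10000 UMIs, with at least 1 such UMI in 27% of cells. The 718 cells with exactly 2 UMIs held 2.97 per 10000 and a further cell cycle UMI in 53.1%, and the 1295 cells with 5 or more held 17.8 per 10000 and one in 97.5%. Cells just inside the limit were therefore nearer to those just outside than to the core of the population, and these values are given as a description.

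Some properties of the libraries touch the results. The libraries held 20132553 to 92475986 UMIs, and the proliferating cells of a library 55060 to 6410628. The library labelled eWAT WT-Veh 1 gave 31% of the proliferating cells, and eWAT as a whole gave 80.4%. The libraries labelled iWAT ob/ob-Veh held 34 and 14 proliferating cells with a median of 3081 and 3152 UMIs, against 6114 to 11992 elsewhere. Their proliferating cells gave 3.24% and 4.78% of UMIs to ribosomal protein genes and a median of 13.2% and 13.4% to mitochondrial genes, and the other 10 libraries gave 11.8% to 18.8% and 2.16% to 7.16%. In the eWAT ob/ob-Veh libraries 29.6% and 30.2% of proliferating cells had under 5% ribosomal protein UMIs, against 0% to 2.99% in the libraries labelled WT-Veh or ob/ob-Rosi. In the other macrophages of these eWAT libraries 28.3% and 17.5% of cells had under 5%. The plot of RNA quality shows the ribosomal protein and mitochondrial shares in both classes. Of the 2588 cells, 106 carried a barcode that also stood in another library, and 2 of these were proliferating macrophages there too. The 3′ tags of Lep do not read the ob/ob mutation and so cannot check the genotype, but Lep transcript is known to be raised in ob/ob fat. Over all barcodes, Lep stood at 30.5 and 79.3 UMIs per 100 UMIs of the adipocyte gene Adipoq under eWAT WT-Veh, at 3.59 and 10.3 under ob/ob-Veh and at 259 and 361 under ob/ob-Rosi. Under the iWAT labels it stood at 20.5 and 31.4, at 33.3 and 14, and at 164 and 139, and a library held 4 to 318 Lep UMIs. In eWAT the libraries labelled ob/ob-Veh thus lay below those labelled WT-Veh, and the LAM genes described below did too. Both run against what is known of ob/ob fat, the adipocytes that make Lep, and any macrophages that float with them, were removed in the preparation, and the cause was not tested. The labels were not tested by these values, and the body weights, glucose tolerance tests and tissue sections of the study were not analysed here. Groups are named by their labels throughout.

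**Figure D1:**
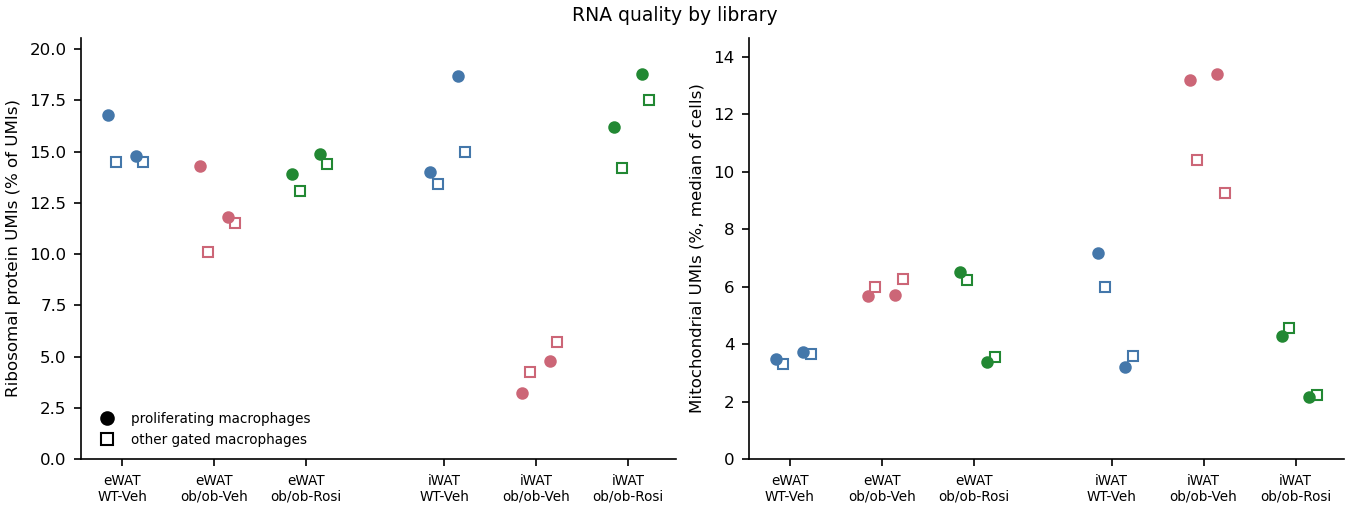
Share of UMIs from ribosomal protein genes (left, percent, over all cells of the class) and median share of mitochondrial UMIs per cell (right, percent) in each library, with filled circles for proliferating macrophages, open squares for the other macrophages and colours for the labels WT-Veh (blue), ob/ob-Veh (red) and ob/ob-Rosi (green). The 2 iWAT libraries labelled ob/ob-Veh sit at 3.24% and 4.78% ribosomal protein UMIs in proliferating macrophages, below the other 10, and at 13.2% and 13.4% mitochondrial UMIs, above them.

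Proliferating cells made up fewer of the macrophages under the label ob/ob-Veh than under ob/ob-Rosi in both depots, and fewer in iWAT than in eWAT. The eWAT WT-Veh libraries had 801 and 213 such cells, or 10.4% (95% Clopper-Pearson interval 9.72% to 11.1%) and 7.39% (6.46% to 8.4%) of macrophages. The eWAT ob/ob-Veh libraries had 108 and 53, or 3.97% (3.26% to 4.77%) and 2.25% (1.69% to 2.93%), and the ob/ob-Rosi libraries 459 and 447, or 9.43% (8.62% to 10.3%) and 8.53% (7.78% to 9.32%). Both ob/ob-Veh values lay below the other 4. In iWAT the WT-Veh libraries held 45 and 61 cells, or 1.73% (1.26% to 2.3%) and 1.72% (1.32% to 2.2%). The ob/ob-Veh libraries held 34 and 14, or 1.4% (0.975% to 1.96%) and 0.8% (0.438% to 1.34%), and the ob/ob-Rosi libraries 167 and 186, or 4.93% (4.22% to 5.71%) and 2.87% (2.47% to 3.3%). The labels did not overlap in iWAT, but the intervals of WT-Veh and of both ob/ob-Veh libraries did. Intervals cover counting error only.

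Across labels the share differed beyond the spread between libraries (exact permutation test within depots, two-sided, p = 0.0133, smallest possible 0.00444, n = 2 libraries per label and depot). On the log2 scale the share under ob/ob-Veh was 1.54 lower than under WT-Veh in eWAT and 0.68 lower in iWAT, and that under ob/ob-Rosi was 1.58 and 1.79 above ob/ob-Veh. Averaged over depots these differences were -1.11 and 1.69, each with an exact permutation p of 0.0556, the smallest that 2 libraries per label and depot allow. Within 1 depot, 2 libraries against 2 cannot reach 0.05 in an exact test. With edgeR on the numbers of cells, the unadjusted p values were 0.00711 and 0.0068 for the 2 effects in eWAT and 0.164 and 0.00318 in iWAT. The shares under ob/ob-Rosi and WT-Veh differed by 0.03 in eWAT and 1.12 in iWAT on the log2 scale (mean over depots 0.57, exact permutation p = 0.167). Between depots the mean log2 share was 1.69 lower in iWAT (exact permutation p = 0.00926, the smallest possible). Of all cells kept, proliferating macrophages made up 5.44% and 3.29% under eWAT WT-Veh, 1.18% and 0.684% under ob/ob-Veh, and 4.86% and 4.44% under ob/ob-Rosi, and in iWAT 0.264% and 0.62%, 0.472% and 0.194%, and 1.73% and 1.06%, where WT-Veh and ob/ob-Veh overlapped. The test over labels gave an exact permutation p of 0.04, which lay above 0.05 with any of 5 of the 12 libraries left out (0.0533 to 0.0978). The labels do not say whether eWAT and iWAT libraries come from the same mice, and the depot test treats them as separate.

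Part of this pattern depended on depth. Cells under 2000 UMIs were left out, the others were thinned to 2000 UMIs and the rule was applied again. The thinned shares thus cover the deeper cells only, and iWAT WT-Veh 1 held 970 macrophages against 2608 before. The share was then 6.51% and 3.58% under eWAT WT-Veh, 1.9% and 1.14% under ob/ob-Veh, and 6.03% and 3.22% under ob/ob-Rosi, so the ob/ob-Veh libraries were again the lowest of eWAT. In iWAT it was 1.86% and 0.406% under WT-Veh, 1.68% and 1.11% under ob/ob-Veh, and 2.4% and 1.54% under ob/ob-Rosi, and the labels overlapped. The test over labels then gave an exact permutation p of 0.209, and the iWAT difference between ob/ob-Veh and WT-Veh turned to 0.66 higher. In this thinning 18 and 9 cells remained in the iWAT ob/ob-Veh libraries. SVF is a mixture, so a lower share of proliferating cells and a larger number of other macrophages cannot be told apart.

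**Figure D2:**
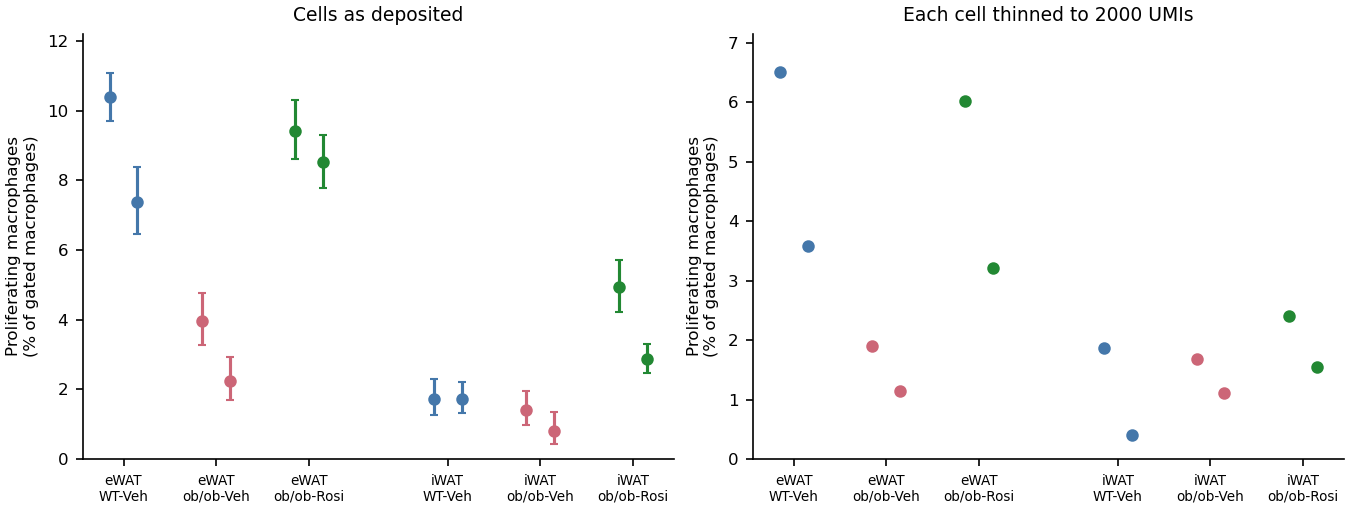
Proliferating macrophages as a percentage of gated macrophages in each library, for cells as deposited (left, bars are 95% Clopper-Pearson intervals) and for cells thinned to 2000 UMIs with shallower cells left out (right), coloured by label as WT-Veh (blue), ob/ob-Veh (red) and ob/ob-Rosi (green). As deposited, the eWAT libraries labelled ob/ob-Veh sit at 3.97% and 2.25%, below the other 4 eWAT libraries, and thinned iWAT libraries overlap between labels.

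The rule does not use LAM or PVM genes, so the share of proliferating cells was compared between these kinds of macrophage at equal depth. A cell was LAM-marked if it held more UMIs of Trem2, Gpnmb, Mmp12, Cd9 and Itgax than of Lyve1, Cd163, F13a1, Folr2 and Cbr2, and PVM-marked in the reverse case. At 2000 UMIs per cell, with shallower cells left out, 9.66% of LAM-marked and 2.04% of PVM-marked cells proliferated in the library labelled eWAT WT-Veh 1. In WT-Veh 2 they were 4.96% and 1.85%. Under eWAT ob/ob-Veh the shares were 5.12% and 1.56%, and 2.16% and 0.825%. Under eWAT ob/ob-Rosi they were 8% and 3.69% in the first library and 3.32% and 3.35% in the second, where LAM-marked cells did not lie above. In iWAT, LAM-marked cells proliferated in 5.85% and 2.06% of cases under WT-Veh, against 0.68% and 0.26% of PVM-marked cells. Under iWAT ob/ob-Rosi the shares were 3.37% against 2.09% and 2% against 1.52%. The mean log2 ratio was 1.49 ± 1.01 (SD, n = 10 libraries), LAM-marked cells were higher in 9 of 10, and the exact permutation test (sign flips over libraries, two-sided) gave p = 0.00391. The iWAT ob/ob-Veh libraries had under 50 LAM-marked cells and were left out. The call held with Trem2 and Gpnmb against Lyve1 and Cd163 alone (mean 1.83, 10 of 10, exact p = 0.00195). Thinned to 1000 UMIs the mean was lower, at 1.14 (11 libraries, exact permutation p = 0.00488). The log2 ratio was then 0.01 in eWAT ob/ob-Rosi 2, 0.08 in iWAT ob/ob-Rosi 1 and -0.40 in iWAT ob/ob-Rosi 2. At 2000 UMIs the iWAT WT-Veh ratios of 2.99 and 2.96 rest on 12 and 9 proliferating LAM-marked cells and 4 and 7 PVM-marked ones.

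**Figure D3:**
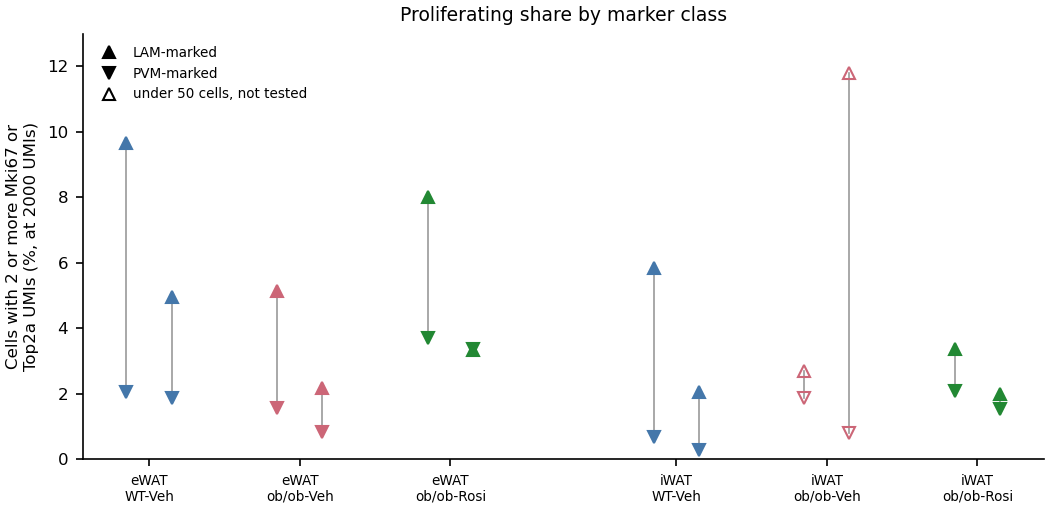
Share of macrophages with 2 or more Mki67 or Top2a UMIs after thinning to 2000 UMIs with shallower cells left out (percent) among LAM-marked (upward triangles) and PVM-marked cells (downward triangles) of each library, coloured by label as WT-Veh (blue), ob/ob-Veh (red) and ob/ob-Rosi (green), with lines joining a library and open symbols for libraries with under 50 cells of a kind. LAM-marked cells lie higher in 9 of the 10 libraries tested, and in the second eWAT ob/ob-Rosi library the shares are 3.32% and 3.35%.

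The make-up of the population followed the labels. LAM-marked cells were 89.3% and 81.7% of proliferating macrophages under eWAT WT-Veh, 27.8% and 26.4% under ob/ob-Veh, and 80.6% and 83.2% under ob/ob-Rosi. In iWAT they were 64.4% and 67.2%, then 5.88% and 14.3%, then 38.3% and 34.9%. Most proliferating macrophages of eWAT under WT-Veh and ob/ob-Rosi thus held more LAM than PVM UMIs, while more than 50% were PVM-marked under ob/ob-Veh (59.3% and 62.3% in eWAT, 88.2% and 78.6% in iWAT) and under iWAT ob/ob-Rosi (52.1% and 56.5%). In the proliferating cells of eWAT ob/ob-Veh 1, the LAM genes of the mark had 99 UMIs of Cd9 and 84 of Itgax. They had 29 of Trem2, 6 of Mmp12 and 3 of Gpnmb. In eWAT ob/ob-Veh 2 these counts were 58, 52, 82, 5 and 17. A LAM-marked cell there thus need not hold Trem2 or Gpnmb. The mark rests on 5 genes of each kind and counts single UMIs. In T cells, which should lack them, Trem2 was found in 15.6% and Gpnmb in 13% (thinned 11% and 9.83%), against 81.8% and 66.5% of all proliferating macrophages (thinned 72.3% and 51.4%). Trem2 ranged from 5.88% to 96.4% and Gpnmb from 2.78% to 84.5% of proliferating cells by library, so the lowest libraries lay at or below the level in T cells. Under ob/ob-Veh, Lyve1 was found in 14.3% to 32.4% of proliferating cells by library and Cd163 in 33.3% to 42.9%. The NPVM gene Ccr2 was found in 77.4% to 92.9% of them, so the PVM mark does not separate PVMs from NPVMs there. In addition, the summed level of the whole PVM list of 20 genes was not higher under ob/ob-Veh. It was 6362 and 9520 CPM under eWAT WT-Veh and 4069 and 9278 under ob/ob-Veh, and in iWAT 8060 and 8263 against 4848 and 4895. Other macrophages of the same libraries held 11.3% and 13.5% LAM-marked cells under eWAT ob/ob-Veh and 51% to 72.6% under the other 2 labels. Dendritic cells can carry Csf1r and divide in tissue. At least 1 UMI of a dendritic gene (Flt3, Zbtb46, Xcr1, Clec9a, Cd209a or Ccr7) was found in 55.6% and 39.6% of proliferating cells under eWAT ob/ob-Veh and in 4.37% to 6.75% under the other labels of eWAT, and thinned to 2000 UMIs in 32.7% and 25.5% against 1.46% to 3.37%. Other macrophages held such a UMI in 37.2% and 36.5% under eWAT ob/ob-Veh and in 5.56% to 10.5% under the other labels of eWAT, and thinned in 26.4% and 23.1% against 4.36% to 5.87%. The C1q genes of macrophages had a UMI in 75% and 88.7% of proliferating cells under eWAT ob/ob-Veh and in at least 98.9% elsewhere in eWAT. In the results below, cells with a dendritic UMI were left out as an alternative. Under eWAT ob/ob-Veh, Cd209a was found in 42.6% and 24.5% of proliferating cells and Xcr1 in 9.26% and 5.66%. Cd209a also stood at 164 and 130 CPM in the other macrophages there. The filter counts raw UMIs, so it moves with depth, can remove macrophages and can miss dendritic cells. It does not measure the part of dendritic cells.

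In eWAT, the proliferating macrophages of the libraries labelled ob/ob-Veh differed from those labelled WT-Veh in 2124 of 10049 genes tested (21.1%), with 1156 higher (11.5%) and 968 lower (9.63%). A gene counted as called if its adjusted p (Benjamini-Hochberg, over all genes tested) did not exceed 0.05 and it changed by 1.1-fold or more, by the quasi-likelihood test of edgeR on UMIs summed per library. Of 24 LAM genes 23 were lower under ob/ob-Veh, and 12 of 19 NPVM and monocyte genes, all 10 MHC class II genes and 14 of 26 inflammatory genes were higher. The count was 723 without the library labelled WT-Veh 1, and 1150 and 1309 without ob/ob-Veh 1 and 2. With cells of at least 5% ribosomal protein UMIs only, it was 1495 of 9709 genes tested. By library size alone 1301 genes were higher and 747 lower, and without the cells holding a dendritic UMI, described above, 963 and 993. Levels are CPM of the summed proliferating cells of a library, scaled by TMM, and log2 changes with their standard error. With 2 libraries per label no exact test of a single gene can reach 0.05, so each call rests on the variance model. In simulated data with 200 changed genes at 20 CPM or more, 2-fold changes were recovered in 7% and 4-fold changes in 89.5% in the eWAT ob/ob effect. Beside the 14 and 179 genes recovered there, 6 and 13 unchanged genes were called. In the simulated eWAT Rosi effect, 8 and 21 unchanged genes were called beside 26 and 186 recovered. For 2-fold changes the part of unchanged genes among the calls thus exceeded the threshold of 0.05.

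The LAM gene called higher was the integrin gene Itgax, at 37.8 and 30.6 CPM against 86.9 and 109, and the median log2 change of the list was -2.71, against -0.02 over all genes tested. Gpnmb, a glycoprotein of lysosomes, stood at 1573 and 1265 CPM under WT-Veh and at 3.1 and 35.6 under ob/ob-Veh (log2 change -6.46 ± 0.77, adjusted p = 9.87e-06). The cathepsin gene Ctsl stood at 4097 and 3379 CPM and at 86.9 and 205 (-4.70 ± 0.56, adjusted p = 9.84e-06). Plin2, which coats lipid droplets, stood at 3298 and 2552 CPM and at 308 and 321 (-3.21 ± 0.43, adjusted p = 3.04e-05). In each the ob/ob-Veh libraries lay below the WT-Veh libraries and the label groups did not overlap. Ctsk, encoding the bone-resorbing cathepsin K, stood at 430 and 349 CPM against 1.03 and 29.3 (-5.02 ± 0.86, adjusted p = 0.000356). Atp6v0d2, a subunit of the lysosomal proton pump, stood at 530 and 405 CPM against 1.03 and 35.6 (-5.00 ± 0.73, adjusted p = 7.49e-05). For these genes the ob/ob-Veh libraries differed among themselves more than the WT-Veh libraries did. Syngr1, a vesicle membrane protein, stood at 247 and 210 CPM against 4.14 and 10.5 (-5.13 ± 0.51, adjusted p = 1.48e-06), and the aldo-keto reductase gene Akr1b8 at 173 and 181 CPM against 4.14 and 8.38 (-4.95 ± 0.46, adjusted p = 1e-06).

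Retnla, a marker of alternative activation, stood at 156 and 43.4 CPM under eWAT WT-Veh and at 11543 and 7106 under ob/ob-Veh (log2 change 6.54 ± 0.68, adjusted p = 2.17e-06). Fn1, encoding fibronectin, stood at 107 and 93.9 CPM and at 3835 and 4278 (5.33 ± 0.44, adjusted p = 3.3e-07). Il6, encoding the cytokine interleukin-6, stood at 2.52 and 3.54 CPM and at 221 and 308 (6.48 ± 0.55, adjusted p = 4.59e-07). All 3 separated the labels fully. Ccl17, a chemokine of dendritic cells, stood at 2.16 and 0.886 CPM and at 216 and 126 (6.59 ± 1.18, adjusted p = 0.000638), and the lectin gene Cd209a at 3.42 and 9.3 CPM and at 256 and 180 (5.25 ± 0.54, adjusted p = 1.91e-06). Without the cells that held a dendritic UMI, the log2 change of Ccl17 was -4.20 (adjusted p = 0.77) so the change of Ccl17 rested on those cells. Cd209a was used to remove cells and cannot be tested this way. The receptor gene Ccr2, which draws monocytes to tissue, stood at 43.4 and 62 CPM and at 796 and 929 (4.04 ± 0.38, adjusted p = 1e-06).

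By list, 12 of 19 NPVM and monocyte genes were higher and 0 lower (median log2 change 2.12), and 6 of 20 PVM genes higher and 2 lower (0.71). All 10 MHC class II genes tested, which present antigen, were higher (median 2.15). H2-Ab1 stood at 834 and 1693 CPM against 5835 and 5364 (2.15 ± 0.38, adjusted p = 0.000476). Of 26 inflammatory genes 14 were higher (median 1.29), among them Ptgs2, the inducible cyclooxygenase, at 8.64 and 7.09 CPM against 114 and 126 (3.89 ± 0.50, adjusted p = 2.3e-05). Of 24 genes known to respond to tissue dissociation 14 were higher (median 1.27), led by the heat shock gene Hspa1b at 7.56 and 4.43 CPM against 146 and 83.8. The part of digestion in these values was not tested. Of 11 dendritic genes 8 were higher and 1 lower (median 2.81), and the summed level of the whole dendritic list, most of it from Cst3, was 3330 and 3798 CPM against 4438 and 3597. All 6 mesothelial genes, markers of cells that line the peritoneum, were higher, at a summed 113 and 149 CPM under ob/ob-Veh against 9.9 and 2.22 under WT-Veh, and other macrophages of the ob/ob-Veh libraries held 476 and 439. The part of mesothelial RNA was not tested. Without the cells holding a dendritic UMI, 23 of 24 LAM genes were again lower and 7 of 9 MHC class II genes, 11 of 19 NPVM genes and 9 of 27 inflammatory genes were higher, with 1 NPVM gene lower.

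Of metabolic lists, 13 of 27 PPAR and lipid genes were lower and 0 higher (median -1.13), among them Angptl4, a secreted inhibitor of lipoprotein lipase, at 174 and 161 CPM against 20.7 and 10.5 (-3.32 ± 0.40, adjusted p = 1.41e-05). In the list of macrophage growth factors and receptors 4 of 21 genes were higher and 2 lower (median 0.44), and of the lower ones Nr1h3, encoding the sterol receptor LXRα, stood at 66.2 and 56.3 CPM against 4.14 and 10.5 (-3.24 ± 0.53, adjusted p = 0.000243). Respiratory chain genes of the nucleus were lower in 27 of 88 (median -0.79) and ribosomal protein genes in 2 of 80 (median -0.42). Where only cells with at least 5% ribosomal protein UMIs were summed, 9 of 88 respiratory chain genes were called lower. Glycolysis genes moved both ways, with 4 of 19 higher and 5 lower.

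**Figure D4:**
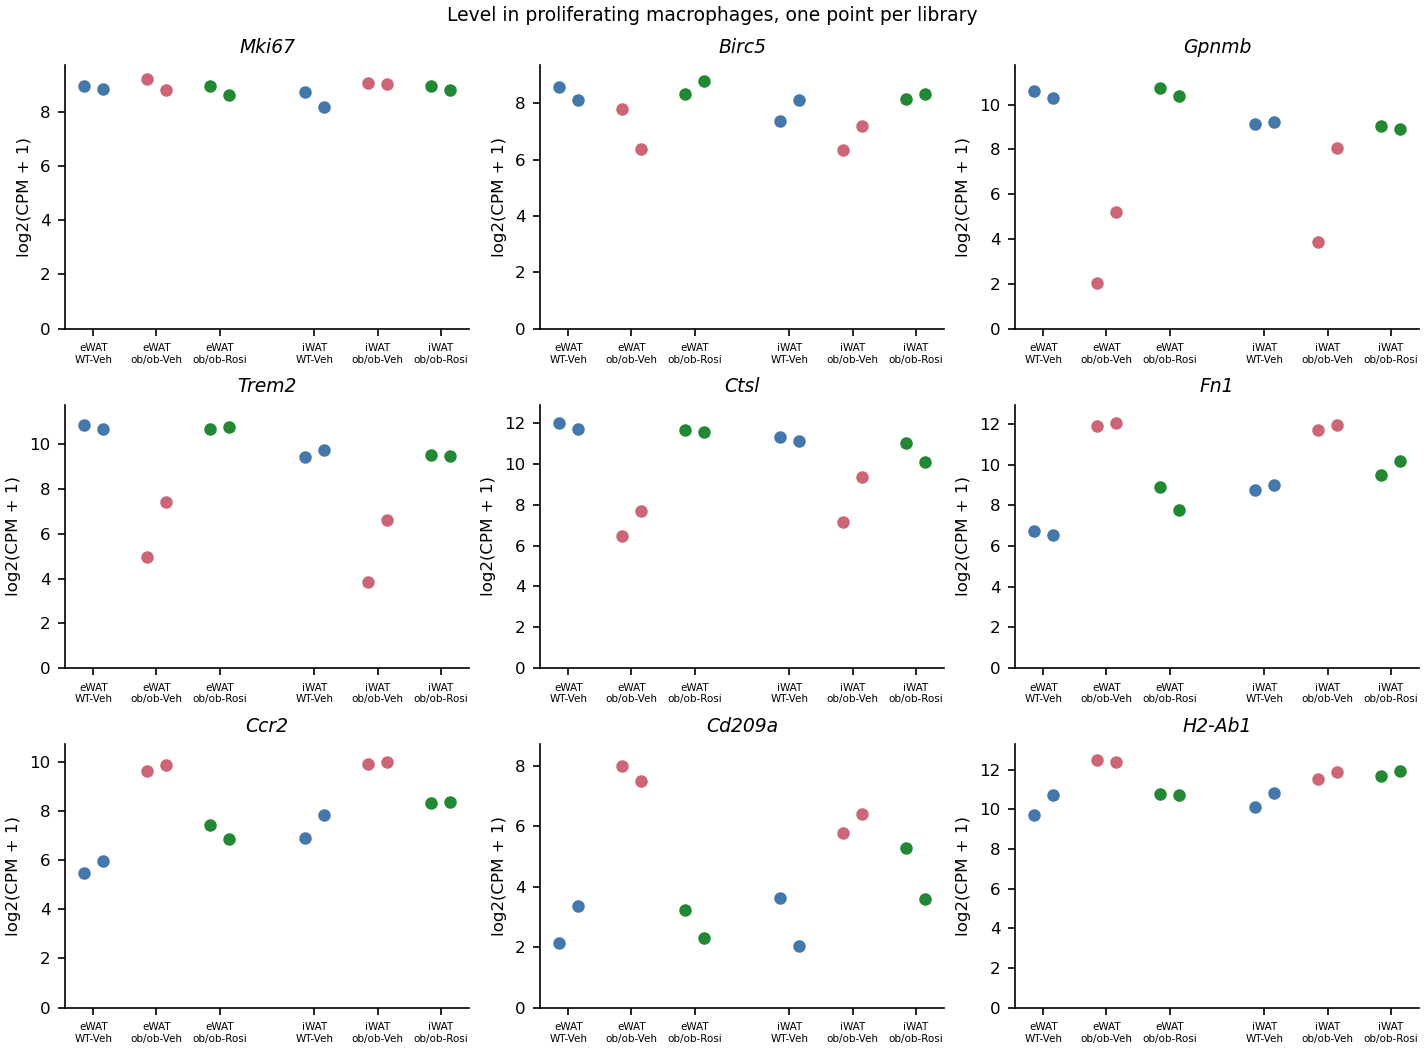
Levels of 9 genes in the proliferating macrophages of each library (vertical axis, log2 of CPM + 1; 1 point per library; colours for the labels WT-Veh in blue, ob/ob-Veh in red and ob/ob-Rosi in green). Mki67 overlaps between labels in eWAT, the LAM genes Gpnmb, Trem2 and Ctsl lie lowest under ob/ob-Veh in both depots, and Fn1 and Ccr2 lie highest there.

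Under Rosi, LAM genes of eWAT were higher and lists of monocyte, MHC class II and dissociation genes held lower genes. Against ob/ob-Veh, ob/ob-Rosi had 1871 genes called (18.6%), 828 higher (8.24%) and 1043 lower (10.4%). The count was 784 without the library labelled ob/ob-Rosi 2, and 940 and 1087 without ob/ob-Veh 1 and 2. With cells of at least 5% ribosomal protein UMIs only, it was 1274 of 9709 genes tested. By library size alone 629 genes were higher and 1211 lower, and without the cells holding a dendritic UMI 842 and 790. Both comparisons use the same ob/ob-Veh libraries, so their values are set side by side and no overlap is tested. LAM genes were higher in 23 of 24 (median 2.47, all genes 0.01), and Itgax was the one not called (0.13 ± 0.35). Gpnmb stood at 1734 and 1325 CPM under ob/ob-Rosi (log2 change 6.57 ± 0.77, adjusted p = 1.45e-05), and Trem2, the lipid-sensing receptor of LAMs, at 30 and 172 CPM under ob/ob-Veh and at 1638 and 1767 under ob/ob-Rosi (4.14 ± 0.57, adjusted p = 5.86e-05). Mmp12, a macrophage elastase, stood at 6.21 and 10.5 CPM and at 1005 and 389 (6.47 ± 1.16, adjusted p = 0.000661). The ob/ob-Rosi libraries of Mmp12 also lay above the WT-Veh libraries at 144 and 59.4 CPM, but Mmp12 was not called between those labels. Ctsk stood at 522 and 285 CPM, Syngr1 at 186 and 241 and Atp6v0d2 at 414 and 328 under ob/ob-Rosi, with log2 changes of 5.07 ± 0.86, 5.03 ± 0.51 and 4.66 ± 0.72.

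Il6 fell by 6.29 ± 0.54 on the log2 scale to 4.05 and 2.69 CPM under ob/ob-Rosi (adjusted p = 1.39e-06), and Retnla by 4.96 ± 0.63 to 414 and 189 CPM (adjusted p = 2.83e-05). Igfbp5, which binds insulin-like growth factors and is made by stromal cells, stood at 83.8 and 50.3 CPM under ob/ob-Veh and at 2.03 and 1.45 under ob/ob-Rosi (-5.29 ± 0.53, adjusted p = 3.43e-06). Ccl17 and Cd209a fell by 5.77 and 5.18, to 2.61 and 3.52 CPM and to 8.4 and 3.93 CPM, and Ccl17 was at 4.95 (adjusted p = 0.703) without the cells holding a dendritic UMI. By list, 9 of 19 NPVM and monocyte genes, 9 of 20 PVM genes, 8 of 10 MHC class II genes, 11 of 26 inflammatory genes, 15 of 24 dissociation genes and 9 of 11 dendritic genes were lower. The NPVM gene Chil3 (adjusted p = 0.0268) and the dendritic gene Cadm1, at 13.5 and 37.7 CPM under ob/ob-Veh and 149 and 106 under ob/ob-Rosi, were called higher. All 6 mesothelial genes were lower, at a summed 113 and 149 CPM under ob/ob-Veh against 2.61 and 1.24 under ob/ob-Rosi, and the part of mesothelial RNA was not tested. The macrophage identity list, with Cd68, Tyrobp and the C1q genes, was higher in 8 of 18 and lower in 3. PPAR and lipid genes were higher in 11 of 27 and lower in 1, and respiratory chain genes higher in 21 of 88 (median 0.69). None of 80 ribosomal protein genes was called in edgeR (median 0.28), and DESeq2 called 4 higher. Glycolysis genes were higher in 6 of 19 and lower in 3, with the pyruvate kinase gene Pkm at 349 and 233 CPM under ob/ob-Veh and at 648 and 1016 under ob/ob-Rosi (1.51 ± 0.34, adjusted p = 0.00456), and peroxisome genes higher in 3 of 35 and lower in 1.

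**Figure D5:**
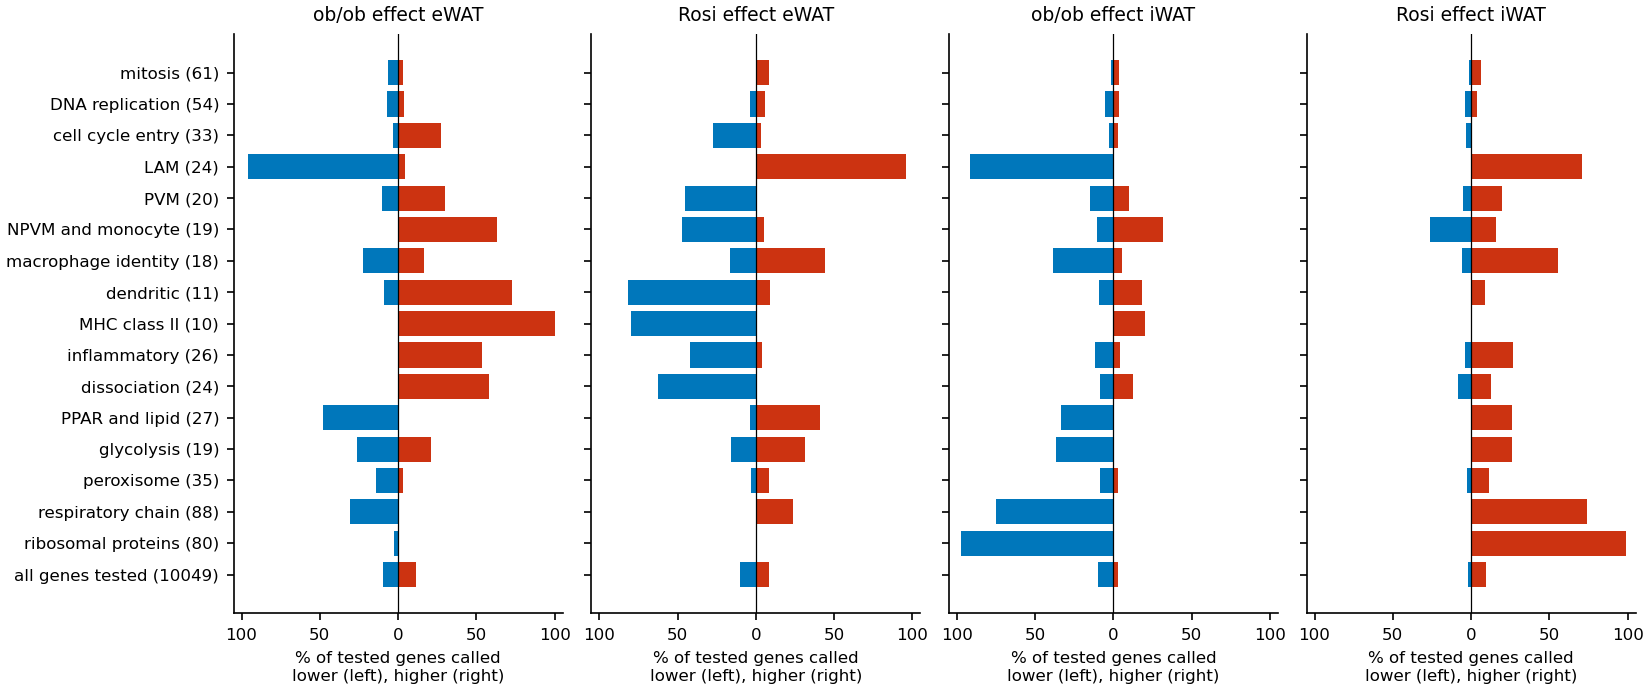
Percentage of the tested genes of each list that were called lower (blue, to the left) and higher (red, to the right) in proliferating macrophages in 4 comparisons, with the number tested in parentheses and all genes tested in the lowest row. LAM genes were lower in 23 of 24 in the eWAT ob/ob effect and higher in 23 of 24 in the eWAT Rosi effect, and ribosomal protein genes were lower in 78 of 80 and higher in 79 of 80 in iWAT.

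Set directly against WT-Veh, the ob/ob-Rosi libraries of eWAT gave 0 called genes of 10049 in edgeR (0% called in either direction), with 237 genes at an unadjusted p under 0.05 and 2 called by DESeq2. The count was 18 with the replicate block, 33 with no filter on low counts, 7 without the library labelled eWAT ob/ob-Rosi 2, 2 without iWAT ob/ob-Rosi 2, and 1 without eWAT WT-Veh 1 or either eWAT ob/ob-Veh library. A call that is missing does not show equal levels, and the power of this comparison was not simulated.

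In iWAT the ob/ob effect rests on the 48 cells of the ob/ob-Veh libraries, whose RNA stood apart. It called 1311 genes (13%), with 295 higher (2.94%) and 1016 lower (10.1%), and the Rosi effect called 1201 (12%), with 975 higher (9.7%) and 226 lower (2.25%). Without the library labelled ob/ob-Veh 1 the counts were 275 and 280, and without ob/ob-Veh 2 they were 836 and 717. The ob/ob effect called 723 without WT-Veh 2, and the Rosi effect 782 without ob/ob-Rosi 2. These splits turned with the scaling: by library size alone 62.6% of calls in the ob/ob effect were higher, against 22.5% with TMM, and 36.9% against 81.2% in the Rosi effect. The median log2 change of all genes moved from -0.26 to 0.36 and from 0.28 to -0.38 with it. Ribosomal protein genes were lower in 78 of 80 in the ob/ob effect (median -2.90) and higher in 79 of 80 in the Rosi effect (median 3.01), and by library size alone in 75 and 77 of 80. Rpl26 stood at 2018 and 2571 CPM under WT-Veh, at 201 and 205 under ob/ob-Veh and at 2597 and 2910 under ob/ob-Rosi (log2 changes -3.50 ± 0.37, adjusted p = 1.2e-05, and 3.76 ± 0.37, adjusted p = 5.28e-06). Respiratory chain genes were lower in 66 of 88 and higher in 65 of 88. The other macrophages of these libraries gave 4.23% and 5.7% of UMIs to ribosomal protein genes, and the part of RNA quality in these counts cannot be told apart from the label. The test without cells under 5% ribosomal protein UMIs could not be made, because fewer than 10 proliferating cells then remained in each of these libraries.

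LAM genes were also lower in iWAT under ob/ob-Veh, in 22 of 24 (median -2.75), and higher under ob/ob-Rosi in 17 of 24 (median 2.40), with 16 and 10 of 24 by library size alone. Lgals1, encoding galectin-1, stood at 2312 and 2644 CPM under WT-Veh, at 101 and 193 under ob/ob-Veh and at 2763 and 1792 under ob/ob-Rosi (-4.14 ± 0.43, adjusted p = 1.2e-05, and 4.02 ± 0.42, adjusted p = 8.04e-06). Fabp4, a fatty acid carrier and PPARγ target, stood at 2487 and 3171, at 53.6 and 205, and at 1841 and 1011 CPM (-4.59 ± 0.65, adjusted p = 8.55e-05, and 3.60 ± 0.64, adjusted p = 0.000714). Fn1 stood at 437 and 521 CPM under WT-Veh and at 3359 and 3930 under ob/ob-Veh (2.93 ± 0.40, adjusted p = 5.51e-05), on the same side as in eWAT. Of the 19 NPVM and monocyte genes 6 were higher and 2 lower in the iWAT ob/ob effect (median 1.26), and 3 higher and 5 lower in the Rosi effect (median -0.96). The calcium-binding protein genes S100a4, at 1543 and 816 CPM under WT-Veh against 127 and 181, and S100a6, at 2992 and 2864 against 489 and 603, were the 2 lower ones. MHC class II genes were called in 2 of 10 in the iWAT ob/ob effect, both higher, and in 0 of 10 in the Rosi effect (edgeR). PVM genes were higher in 2 of 20 and lower in 3 (Pf4, Selenop and Ninj1) in the ob/ob effect, and higher in 4 and lower in 1 in the Rosi effect. Macrophage identity genes were lower in 7 of 18 and higher in 1 in the ob/ob effect, and higher in 10 of 18 and lower in 1 in the Rosi effect. PPAR and lipid genes were lower in 9 of 27 and higher in 7 of 27, glycolysis genes lower in 7 of 19 and higher in 5 of 19, with a median of glycolysis that changed sign by library size alone in the Rosi effect. Stromal genes, which mark the fibroblast lineage, were higher in 6 of 10 under ob/ob-Veh, at a summed 3580 and 2652 CPM against 960 and 1212 under WT-Veh, and the other macrophages of the ob/ob-Veh libraries held 8242 and 6793. The part of stromal RNA was not tested.

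Ctsk stood at 1883 and 245 CPM under iWAT WT-Veh and at 13.4 and 12.1 under ob/ob-Veh (-6.34 ± 1.1, adjusted p = 0.000589). Hspa1b stood at 14.3 and 15.7 CPM under WT-Veh, at 563 and 422 under ob/ob-Veh and at 24.6 and 13.4 under ob/ob-Rosi (5.04 ± 0.46, adjusted p = 2.69e-06, and -4.71 ± 0.41, adjusted p = 1.94e-06). Hspa1a, its neighbour and near-identical copy, and Lsmem1 and the nuclear pore gene Nup210 lay highest under ob/ob-Veh as well, at 543 and 518, 275 and 277, and 315 and 145 CPM. Reads of Hspa1a and Hspa1b can be split between the copies, so their single values are uncertain. Some genes had no UMI in either ob/ob-Veh library: 1110008P14Rik, Vma21, Angptl4, Dtnbp1 and Lsm12 were at 71.5 to 200 CPM under WT-Veh. Set against 3 UMIs over both ob/ob-Veh libraries (12.9 CPM as scaled by TMM), they were 13.4-fold, 10.9-fold, 8.62-fold, 8.7-fold and 7.29-fold lower under ob/ob-Veh than under WT-Veh. On the same scale Dtnbp1, Vma21, 1110008P14Rik, Avpi1 and Lsm12 were 9.29-fold, 9.03-fold, 7.15-fold, 7.07-fold and 7.07-fold higher under ob/ob-Rosi than under ob/ob-Veh. These folds allow for counting error only, move with the scaling and leave out the spread between libraries, so they are not firm lower limits. In all, 711 of the 10049 genes had no UMI in either iWAT ob/ob-Veh library.

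Between ob/ob-Rosi and WT-Veh in iWAT 8 genes were called (0.0796%), 3 higher (0.0299%) and 5 lower (0.0498%), with 579 at an unadjusted p under 0.05. Without the library labelled iWAT WT-Veh 1 no gene was called in edgeR, so every call named here was lost, and without WT-Veh 2 the count was 17, without ob/ob-Rosi 2 it was 3 and without ob/ob-Veh 1 it was 5. It was 0 thinned to 700 UMIs, 2 without Scrublet calls and 17 in DESeq2. Angptl4 stood at 129 and 102 CPM under WT-Veh and at 30.6 and 16.4 under ob/ob-Rosi (-2.28 ± 0.37, adjusted p = 0.0129). Acp5, an acid phosphatase of LAMs and osteoclasts, stood at 675 and 292 CPM and at 112 and 115 (-2.08 ± 0.39, adjusted p = 0.0471), and Cpe at 65.7 and 47.1 and at 14.2 and 8.95 (-2.25 ± 0.43, adjusted p = 0.0471). The stromal genes Mgp, at 5.72 and 3.14 against 49.9 and 56.7 CPM, and Dcn, at 68.6 and 91 against 336 and 410, were higher under ob/ob-Rosi (3.68 ± 0.58 and 2.21 ± 0.33, adjusted p = 0.0105 for both). The stromal list summed to 960 and 1212 CPM under WT-Veh and to 1842 and 2540 under ob/ob-Rosi, and the part of stromal RNA was not tested.

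Averaged over labels, 231 genes were called between depots (2.3%), 63 higher in iWAT (0.627%) and 168 lower (1.67%). PVM genes were higher in iWAT in 5 of 20 and NPVM genes in 5 of 19, with none lower, and LAM genes were lower in 4 of 24 and macrophage identity genes in 4 of 18, with none higher. The complement gene C4b stood at 23 to 76.2 CPM in the 6 eWAT libraries and at 116 to 389 in the 6 iWAT libraries, without overlap (2.13 ± 0.27, adjusted p = 0.000205). The iWAT ob/ob-Veh values rest on 58 and 15 UMIs. Other macrophages held more C4b with the same split, at 82.1 to 349 CPM in eWAT and 504 to 1283 in iWAT. The split was thus not particular to proliferating cells, and the part of RNA from other cell types was not tested. Of 80 ribosomal protein genes 32 were lower in iWAT, and 9 of the 12 libraries, left out 1 at a time, moved the count of calls by over 1.5 times. It was 11 without the library labelled iWAT ob/ob-Veh 1, 37 without eWAT WT-Veh 1, 72 without eWAT ob/ob-Rosi 2 and 424 without iWAT WT-Veh 2. By library size alone it was 103, of which 74.8% were higher.

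Within the population, at most 6 of 61 mitosis genes were called in any effect of label within a depot, and cell cycle entry genes in 10 of 33 in each eWAT effect. Mki67 stood at 395 to 592 CPM in eWAT and at 289 to 543 in iWAT, and Top2a at 335 to 548 and 260 to 624, levels that the rule sets in part, and neither was called in any comparison. Birc5 stood at 388 and 280, 222 and 81.8, and 320 and 442 CPM in eWAT, and was called only in the Rosi effect (1.29 ± 0.40, adjusted p = 0.0283; ob/ob effect -1.10 ± 0.40, adjusted p = 0.0526). Kif11 was called in iWAT alone, at 57.2 and 43.9 CPM under WT-Veh, 201 and 193 under ob/ob-Veh and 83.5 and 73.8 under ob/ob-Rosi (1.99 ± 0.42, adjusted p = 0.0031, and -1.33 ± 0.38, adjusted p = 0.0273). The rule counts raw UMIs, and the iWAT ob/ob-Veh cells had a median of 3081 and 3152 UMIs. A cell there needs a higher share of Mki67 and Top2a UMIs to pass, and both genes were highest of iWAT there. The Kif11 values under iWAT ob/ob-Veh rest on 30 and 16 UMIs, and the part of the rule in them was not tested. Of 61 mitosis genes 2 were higher and 4 lower in the eWAT ob/ob effect (median -0.35), 5 higher and 0 lower in the eWAT Rosi effect (0.40), 2 higher and 1 lower in the iWAT ob/ob effect (-0.06) and 4 higher and 1 lower in the iWAT Rosi effect (0.51), and the iWAT medians were 0.57 and -0.15 by library size alone. These counts were near or below the share over all genes. Ccnb1, the cyclin that drives entry into mitosis, stood at 91.6 and 103 CPM under eWAT WT-Veh, 50.7 and 33.5 under ob/ob-Veh and 88 and 132 under ob/ob-Rosi (-1.16 ± 0.33, adjusted p = 0.0165, and 1.34 ± 0.33, adjusted p = 0.00765). Tk1, the thymidine kinase of S phase, stood at 235 and 163, 66.2 and 54.5, and 138 and 271 CPM (-1.70 ± 0.41, adjusted p = 0.00617, and 1.74 ± 0.41, adjusted p = 0.0062). Ccnd2, a cyclin of G1 that growth signals induce, moved the other way, at 9.18 and 16, 170 and 134, and 11 and 21.5 CPM (3.66 ± 0.43, adjusted p = 8.44e-06, and -3.21 ± 0.41, adjusted p = 2.7e-05), with 9 of 33 cell cycle entry genes higher and 1 lower in the ob/ob effect and 9 lower and 1 higher in the Rosi effect. Btg1 and Btg2, which restrain division, moved on the same side as Ccnd2. Btg1 stood at 311 and 340, 1015 and 1643, and 370 and 241 CPM. Btg2 stood at 178 and 381, 1149 and 1497, and 337 and 211 CPM. These changes therefore do not show whether more or fewer cells entered the cycle. DNA replication genes made up 25.7% to 39.3% of the UMIs of replication and mitosis genes together in the 12 libraries, and the test over labels did not pass the threshold (exact permutation test, two-sided, p = 0.209, n = 2 libraries per label and depot).

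Whether an effect differed between proliferating and other macrophages was tested with the library as a block, averaged over depots. The difference of the ob/ob effect was called in 856 of 13374 genes (6.4%), 334 higher (2.5%) and 522 lower (3.9%), and that of the Rosi effect in 466 (3.48%), 322 higher (2.41%) and 144 lower (1.08%). In the ob/ob effect, the LAM gene Ctsl had a difference of -2.14 ± 0.23 (adjusted p = 4.55e-10). In eWAT other macrophages held 3355 and 2899 CPM of Ctsl under WT-Veh and 393 and 443 under ob/ob-Veh, so Ctsl was lower under ob/ob-Veh in both classes and by more in proliferating cells. Fn1 had a difference of 1.58 ± 0.17 (adjusted p = 5.08e-10), with 323 and 221 CPM and 2041 and 1620 in the other macrophages. Hspa1a and Hspa1b had differences of 1.93 ± 0.21 and 2.19 ± 0.25, and Lgals1 one of -1.74 ± 0.20 (adjusted p = 6.03e-10, 1.87e-09 and 1.7e-09). The median over all genes was -0.27 in the ob/ob difference and 0.32 in the Rosi difference. In the ob/ob difference LAM genes were called lower in 12 of 24 and higher in 1, and NPVM genes higher in 9 of 20 and lower in 1. MHC class II genes were higher in 8 of 11. Mitosis genes are not read here, since the classes are split by UMIs of Mki67 and Top2a. Thinned to 700 UMIs, which left 10427 genes to test, the counts were 44 and 66, and without the library labelled iWAT ob/ob-Veh 1 they were 187 and 134. In the Rosi effect, Ctsl had a difference of 1.75 ± 0.23 (adjusted p = 1.89e-07), the complement gene C1qc one of 1.38 ± 0.19 (adjusted p = 7.84e-07), and LAM genes were higher in 9 of 24 and lower in 1. Hspa1b and Hspa1a had differences of -1.92 ± 0.22 and -1.42 ± 0.18. Thbs1, encoding thrombospondin-1, had one of -3.04 ± 0.34 (adjusted p = 2.89e-09), but rested on the library labelled iWAT ob/ob-Veh 1, without which it was 2.92 (adjusted p = 1). Without the block 13 and 0 genes were called. The direction of the calls turned with the processing. In the main fit 39% of the calls of the ob/ob difference and 69.1% of those of the Rosi difference were higher. By library size alone these shares were 72.6% and 28.9%, and in DESeq2 64% and 36.6%. With at least 5% ribosomal protein UMIs, where eWAT alone could be tested, they were 73.8% and 29%. Without the cells holding a dendritic UMI they were 53.4% and 54.3%, thinned to 700 UMIs 25% and 97%, and with TMM without ribosomal protein and mitochondrial genes 38.3% and 69.5%.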

How the data were processed

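Single-cell RNA of the SVF was measured in 12 libraries, 2 for each of 6 groups of depot and label. The authors deposited filtered matrices of UMI counts for 31053 genes, made per the labels with bcl2fastq 2.19.1.403 and Cell Ranger 3.0.2 on mm10 from 10x 3′ libraries, not normalized. Counts were read as deposited with Python 3.11.15 (scanpy 1.11.5). Doublets were marked with Scrublet and kept, and their removal was tried as an alternative. The members and gene lists were chosen with earlier results of these data known, so no list is independent evidence.

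UMIs of the proliferating macrophages were summed per library and fitted with the quasi-likelihood test of edgeR 4.0.16 (R 4.3.3; TMM, filterByExpr, 6 group means over 12 libraries, 6 residual degrees of freedom), with Benjamini-Hochberg adjustment over the 10049 genes tested. Libraries needed at least 10 such cells. The difference of effects between classes was fitted on 13374 genes with a term per library. Shares were compared with exact permutation tests. Replicate numbers were not taken to pair libraries, since the labels do not tie a number to a mouse, and eWAT and iWAT libraries were treated as separate. DESeq2 1.42.0, library size alone, thinning and other filters were alternatives. The scripts were tested on simulated data. Library depth was 20132553 to 92475986 UMIs. The intervals are binomial on numbers of cells, so they cover counting error only. The edgeR p values rest on the spread between replicates, pooled over groups and drawn toward a value shared by genes (14.7 prior degrees of freedom). The sign-flip test of LAM-marked against PVM-marked cells rests on the spread over libraries of all labels and both depots. Genes were named by rule: the 5 largest changes in each direction at 50 CPM or more whose libraries did not overlap, up to 3 of each list by p at 20 CPM or more, the rule genes, and the 5 smallest p of each class difference. Genes of the cell type marker list, and Itgax, were added after values were seen.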

Additional observations from a re-analysis of the deposited data

Results flagged for a closer look

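The ob/ob effect differed between proliferating and other macrophages in 856 genes, and the Rosi effect in 466 genes, by the class-by-label term of edgeR with the library as a block. These are differences of an effect between classes of cells of the same libraries. Without the library term, 13 and 0 genes were called, and without the library labelled iWAT ob/ob-Veh 1 the counts were 187 and 134.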

How the results depend on the processing

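Leaving out each library in turn gave exact p of 0.00444 to 0.0444 for the share among macrophages across labels, 0.0178 to 0.0978 for the share among kept cells (above 0.05 in 5 of 12) and 0.08 to 0.476 for the DNA replication share, a depot difference of -1.82 to -1.55 and a LAM against PVM log2 ratio of 1.33 to 1.66. Called genes ranged from 723 (without eWAT WT-Veh 1) to 2277 and from 784 (without eWAT ob/ob-Rosi 2) to 2082 in the eWAT ob/ob and Rosi effects, from 275 to 1403 and 280 to 1313 in iWAT (both lowest without iWAT ob/ob-Veh 1), from 0 to 7 and 0 to 17 for ob/ob-Rosi against WT-Veh in eWAT and iWAT, from 11 to 424 between depots, and from 187 to 1000 and 134 to 687 for the class differences. In the order of the comparisons that moved, thinning to 700 UMIs (2643 genes tested, 10427 for the class differences) gave 402, 285, 240, 278, 0, 4, 44 and 66 calls. The share tests over labels gave 0.209 and 0.12 thinned to 2000 UMIs, and 0.0622 of kept cells at 3 UMIs. At least 20 cells a library gave 836 and 717 in iWAT and 112 between depots. DESeq2 gave 2 and 17 for ob/ob-Rosi against WT-Veh, 377 between depots, and 539 and 262 for the class differences. No filter on low counts gave 33, 66 and 611 for the first 3 of these, and each depot alone gave 2 in eWAT. Between depots, library size alone and TMM without ribosomal protein and mitochondrial genes each gave 103, a limit of 3 UMIs 37 and removal of Scrublet calls 146 (2 for ob/ob-Rosi against WT-Veh in iWAT). Chosen after seeing the data, leaving out cells with a dendritic UMI gave 823 and 692 in iWAT, 5 for ob/ob-Rosi against WT-Veh there, 99 between depots, and 509 and 258 for the class differences, and turned Ccl17 to -4.20 and 4.95 in the eWAT ob/ob and Rosi effects. A minimum of 5% ribosomal protein UMIs gave 435 for the ob/ob class difference. The Rosi class difference of Thbs1 ranged from -3.31 to 2.92 with a library left out, turning without iWAT ob/ob-Veh 1. Replicate numbers did not meet the rule for pairing (r from -0.0456 to 0.443 between same-numbered libraries). With the replicate block 18 and 24 genes were called for ob/ob-Rosi against WT-Veh and 67 between depots. With no replicate block, that is no library term, the class differences gave 13 and 0. The cause of these shifts was not tested. Of 339 named values 165 kept direction and side of the threshold under every alternative that gave a value for it, 140 lost a call at least once and 3 turned. The iWAT effects rest on 34 and 14 ob/ob-Veh cells, and simulated 4-fold changes were recovered there in 36.5% and 47% of genes. Beside the 73 and 94 genes recovered, 4 and 3 unchanged genes were called.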
